A study of Arabidopsis thaliana with 16 samples.

Results

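The transcripts described here are the annotated long noncoding RNAs (lncRNAs) of Arabidopsis thaliana that were recovered mainly in poly(A)+ RNA. They were chosen from the table of lncRNAs annotated in TAIR10 by 2 conditions, a level of at least 0.1 FPKM (fragments scaled to the length of the transcript and the size of the library) in 1 of 16 libraries, and a mean over the 8 poly(A)+ libraries of at least 2 times the mean over the 8 poly(A)- libraries. Of the 480 annotated lncRNA transcripts, which lie at 394 loci, 440 reached the level and 211 transcripts at 182 loci met both conditions. Another 7 transcripts at 6 loci, of which 5 met the ratio, were left out because they belong to loci excluded by name. The whole series holds 36817 transcripts, most of them coding.

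The libraries came from wild-type Columbia (Col-0) seedlings, 10 days old, grown from seed on plates with phosphate (P+) or on the same medium in which potassium sulfate replaced the potassium phosphate (P-). Roots and shoots were collected separately, which gives the 4 groups root P+, root P-, shoot P+ and shoot P-, each with 2 libraries of poly(A)+ RNA and 2 of poly(A)- RNA. The 2 libraries of a group are biological replicates. All groups share the genotype, so no mutant enters any comparison, and each library pools the cell types of a whole organ, in which fewer cells of a type and less RNA per cell cannot be told apart. The root libraries of the tables carry the numbers 2 and 3 and are called root library 2 and root library 3 here. The labels number root replicates 1 and 2. A separate deposited table of called lncRNAs, whose columns carry the labels' numbers, lists 34 of the members, and all 272 of their root values there equal those of library 2 under replicate 1 and of library 3 under replicate 2. The columns were used by their group.

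The organs matched their names. All 7 root marker genes, among them the Casparian strip gene CASP1 and the root hair gene EXPA7, were higher in roots, and all 7 tested shoot marker genes, among them the chlorophyll-binding protein gene LHCB1.1, were lower there, under both media at an adjusted p below 0.05. All 6 marker genes of phosphate (Pi) starvation rose in P- roots at an adjusted p below 0.05. In P- shoots all 6 were higher and 5 passed it, while SQD2 differed by 1.06 (log2, limma adjusted p = 0.0738). Markers of each organ were also listed at low levels in the other. The summed level of the root markers was 2.08 and 3.38 FPKM in the P+ shoot libraries, 36.2 and 27.0 FPKM in the P- shoot libraries and 603 to 959 FPKM in the roots, so that P- shoots held 4.90% of the P- root level and P+ shoots 0.350% of the P+ root level. The summed level of the shoot markers was 304 FPKM in P+ root library 2 and 100.4 FPKM in P+ root library 3, against 77.7 and 74.5 FPKM in P- roots and 5092 to 8880 FPKM in shoots. The P+ root libraries also differed most from each other, with a typical standard deviation between replicates of 0.92 on the log2 scale against 0.65 in P- roots and 0.51 to 0.54 in shoots.

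A poly(A) tail is added to an RNA after its 3′ end is cleaved, and it marks most RNA polymerase II transcripts, messenger RNAs and many lncRNAs alike. Oligo(dT) beads retain RNAs with such a tail, and what stays in the supernatant makes up the poly(A)- fraction. Several plant lncRNAs are precursors of small RNAs. TAS3 transcripts are cut under the guidance of the microRNA miR390 bound to AGO7, copied into double strands by RDR6 and diced by DCL4 into trans-acting small interfering RNAs (ta-siRNAs) that direct cleavage of auxin response factor messages such as ARF3 and ARF4. In Pi starvation the transcription factor PHR1 binds a short promoter element called P1BS in many of the genes that it induces.

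Among the members were 2 ta-siRNA precursors, TAS3 (AT3G17185.1, chr3:5861491-5862437, plus strand) and the related TAS3b locus (AT5G49615.1, chr5:20134200-20134786, plus strand). The sequences of the microRNA that guides their cleavage and of the windows in each precursor most complementary to it are shown first, because this pairing defines the precursors. In the microRNA the capitals mark the seed, and in the windows they mark the Watson-Crick partners of its bases. All positions and sequences here were read from the RefSeq copy of the TAIR10 assembly (TAIR10.1).
miR390a: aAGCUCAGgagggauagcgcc
TAS3, chr3:5862099-5862119: GGtGtTATCCtatCTGAGCTT
TAS3, chr3:5862343-5862363: ttgtCTATCCCTCCTGAGCTa
TAS3b, chr5:20134458-20134478: GaCGCTATCttaCCTGAGCTT
The TAS3 windows each had 5 bases without a Watson-Crick partner in the microRNA and the TAS3b window had 4. Between its pair of windows TAS3 also holds a stretch that is complementary to ARF3 at all but 1 of 21 bases, with the paired bases in capitals.
TAS3, chr3:5862205-5862225, plus strand: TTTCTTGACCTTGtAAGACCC
ARF3, chr2:14325941-14325961, minus strand: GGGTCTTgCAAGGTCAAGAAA

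Another member was AT4G13495.1 (chr4:7842967-7846774, plus strand), an intergenic transcript whose locus holds 3 annotated microRNAs on the same strand. Whether these microRNAs lie in the exons of this transcript was not checked. Their mature sequences are shown because this transcript was among the members that changed with Pi supply, and their seeds, in capitals, differ from each other.
miR5026, chr4:7844612-7844632: aCUCAUAAgaucgugacacgu
miR850, chr4:7845756-7845777: uAAGAUCCggacuacaacaaag
miR863-5p, chr4:7846644-7846664: uUAUGUCUuguugaucucaau
In the whole list 2 of 182 loci (1.1%) held an annotated microRNA on their strand, the other being AT5G26146 with miR156f, against 2 of 169 loci (1.2%) among the other expressed annotated lncRNAs.

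The P1BS element was searched for as GNATATNC, which reads the same on both strands, in the 300 bases from 250 before to 50 after the annotated start. It was found at 11 of 182 member loci (6.04%), at 12 of 169 other expressed lncRNA loci (7.10%) and at 1716 of 27444 coding genes (6.25%). In the 2000 bases upstream it was found at 71 member loci (39.0%), 56 other lncRNA loci (33.1%) and 10143 coding genes (37.0%). The share among members was therefore close to that of coding genes in both windows. The start region of AT2G14878 is shown because this member had one of the 11 matches and was also higher in P- shoots. The match, in capitals, begins 124 bases before the annotated start.
AT2G14878, chr2:6391917-6392216, plus strand: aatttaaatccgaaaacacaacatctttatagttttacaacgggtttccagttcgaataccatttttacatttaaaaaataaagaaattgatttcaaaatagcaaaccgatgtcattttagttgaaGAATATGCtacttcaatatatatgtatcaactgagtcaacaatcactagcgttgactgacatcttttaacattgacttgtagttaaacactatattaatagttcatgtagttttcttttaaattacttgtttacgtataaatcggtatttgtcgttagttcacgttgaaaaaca

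In their position in the genome the member loci differed from the other expressed annotated lncRNAs mainly in how often they overlapped a gene. Of the 182 member loci 97 (53.3%) lay antisense to a coding gene, against 116 of 169 (68.6%) of the other loci. Intergenic loci made up 40 of the members (22.0%) and 16 of the others (9.47%). A further 38 member loci (20.9%) lay within 500 nt of a gene without overlapping it and are called cis-lncRNAs here, against 30 (17.8%) of the others. Another 3 member loci overlapped a gene on the same strand and 4 overlapped a pseudogene or transposable element. Among loci with 1 annotated transcript the members had a median of 2 exons and a median length of 786 nt (89 loci, 204 to 2326 nt), and 39 of them (43.8%) had a single exon. The other lncRNAs had a median of 1 exon and 952 nt (96 loci), and 53 (55.2%) had a single exon. The base composition was near the same, with a median GC content of 39.7% and 40.3%. These are descriptions of loci and no test was made of them.

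The fraction values chose the members and are given without a test. The ratio of the poly(A)+ to the poly(A)- mean had a median of 3.34 over the members with any poly(A)- signal, and 45 members were listed at 0 in all 8 poly(A)- libraries. The enrichment was broad but often modest, with 62 members at a ratio of at least 10 or without poly(A)- signal and 64 at a ratio between 2 and 3. The members just inside the threshold were AT3G22121.1 at 2.00, AT1G67792.1 at 2.01 and AT1G60525.1 at 2.02, and those just outside were AT1G22403.2 and AT4G38545.2 at 1.98 and AT2G09795.2 at 1.97. Taken group by group, 156 members were at least 2 times higher in poly(A)+ RNA in root P+, 148 in root P-, 161 in shoot P+ and 143 in shoot P-, and 58 were so in all 4 groups. In each group 10 to 16 members had a lower mean in poly(A)+ than in poly(A)- RNA. In the poly(A)- libraries 66 to 144 of the 211 members were listed at 0, with most zeros in shoots. The sequencing depth behind these values is unknown, because FPKM keep no read counts, and a level listed at 0 is no proof of absence.

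Most members were expressed at low levels. Their mean over the poly(A)+ libraries had a median of 5.58 FPKM (quartiles 1.17 and 15.5 FPKM), 45 stayed below 1 FPKM and 11 reached 100 FPKM. The 8 highest members supplied 43.3% of the summed level. The highest of all was AT1G10682.1, an intergenic single-exon transcript (chr1:3544913-3545614, minus strand), with 669 and 1741 FPKM in P+ roots, 498 and 777 FPKM in P- roots, 331 and 166 FPKM in P+ shoots, and 215 and 157 FPKM in P- shoots. GUT15 (AT2G18440.1), known from tobacco and Arabidopsis as an RNA that accumulates without a long open reading frame, was at similar levels in all groups, at 194 and 226 FPKM, 130 and 249 FPKM, 183 and 215 FPKM, and 216 and 303 FPKM in the same order, and had no adjusted p below 0.05. Others of the highest members share reads with near-identical copies. The transcripts AT1G25098.1, AT1G25098.2 and AT1G25175.1 lie fully in sequence present elsewhere at 95% identity or more, as did at least 50% of the length of 14 member loci (7.69%, against 6 or 3.55% of the other lncRNA loci), so their levels are uncertain. In addition 24 loci carried more than 1 member transcript, up to 5, and 31 member loci also had a transcript outside the list, and the levels of such transcripts rest on how fragments were divided among them.

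Taken as a sum, the members were most abundant in P+ roots. The rule chose the members on the poly(A)+ values summed here, so the sums are a description and were not tested. The summed poly(A)+ level was 7398 and 6705 FPKM in P+ roots, 3754 and 4469 FPKM in P- roots, 4028 and 3825 FPKM in P+ shoots, and 3729 and 3977 FPKM in P- shoots. Both P+ root libraries stood above all 6 other libraries, which overlapped each other. Without the 8 highest members the sums were 4441 and 3173 FPKM in P+ roots, 2301 and 2282 FPKM in P- roots, 2227 and 2187 FPKM in P+ shoots, and 2483 and 2404 FPKM in P- shoots, in the same order between root groups. The poly(A)- fraction, which the rule had used only as the denominator of the ratio, gave 2281 and 2750 FPKM in P+ roots and 1236 and 1124 FPKM in P- roots. Its shoot values were 631 and 939 FPKM under P+ and 1232 and 1095 FPKM under P-.

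**Figure D1:**
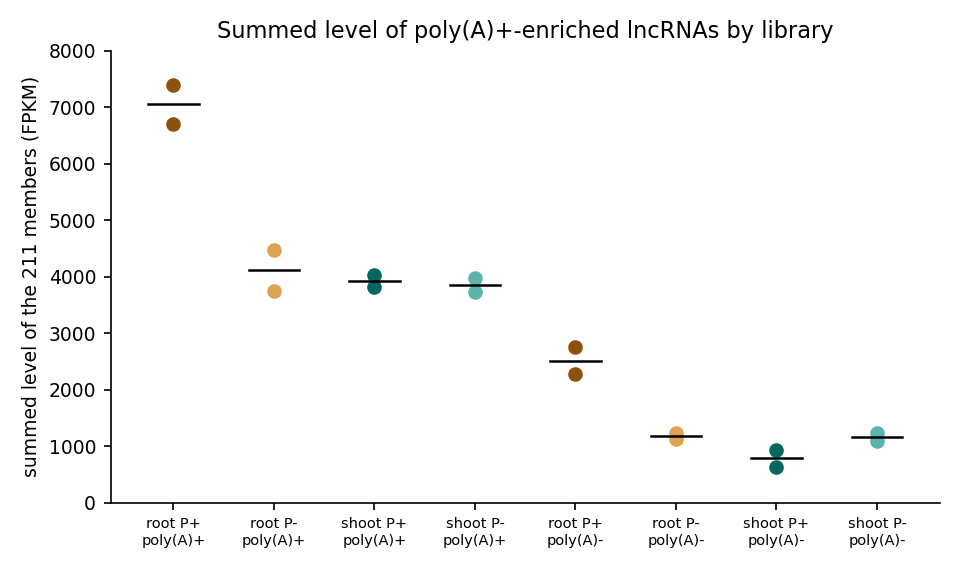
Summed level of the 211 members in each library, in FPKM, with 1 point per library and a bar at the mean of the 2 libraries, for poly(A)+ RNA (left) and poly(A)- RNA (right). In poly(A)+ RNA the P+ root libraries lie at 7398 and 6705 FPKM and the other 6 libraries between 3729 and 4469 FPKM.

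The comparison of P- with P+ roots asked how these lncRNAs respond to Pi deprivation in the organ that takes up Pi. Of the 211 members 166 averaged 1 FPKM or more in the poly(A)+ libraries and entered the fit, while 45 fell below it. More of them were lower in P- roots than higher, 120 against 46, with a median difference of -0.61 on the log2(FPKM + 1) scale beside a median of 0.06 over all 27395 transcripts tested and 0.00 over the 180 other annotated lncRNAs. No member passed an adjusted p of 0.05 in limma, where 1.18% of all transcripts did, and 33 (19.9%, against 16.4%) had an unadjusted p below 0.05. By the looser rule of the study, taken here as a difference of at least 1 on this log2 scale (a fold of 2) and an unadjusted p below 0.05, 27 of the 166 were lower (16.3%, against 5.5% of all transcripts) and 3 were higher (1.81%, against 6.5%). The other annotated lncRNAs had 5 lower and 11 higher. In 53 members (31.9%) both P- root libraries lay below both P+ root libraries, as they did for 17.9% of all transcripts, and in 11 (6.63%) they lay above, as for 24.0% of all transcripts.

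A transcript that read high in P+ roots was more likely to be chosen and to pass the minimum. The list was therefore also drawn from the 8 shoot libraries alone, an alternative added after the data were seen. This list needed a shoot poly(A)+ mean of at least 1 FPKM and at least 2 times the shoot poly(A)- mean. Entry to the fit still used all 8 poly(A)+ libraries, roots included. It held 148 transcripts with a median root difference of -0.36, and 98 of them (66.2%) lay below 0. By the study's thresholds 18 were lower (12.2%) and 2 higher (1.35%). Of the 24706 fitted transcripts at 1 FPKM or more in the shoot poly(A)+ mean, 45.6% lay below 0, 5.19% were lower and 6.03% higher. The poly(A)- values are given as a description alone, since the rule used them as the denominator of the ratio and only the 113 members that averaged 1 FPKM or more in these libraries entered their fit. There the median root difference was -0.64 against -0.04 over all transcripts, 83 of 113 lay below 0, 12 were lower (10.6%, against 3.6% of all transcripts) and 3 higher (2.65%, against 3.11%) by the study's thresholds. None passed an adjusted p of 0.05 in limma (0.0291% of all transcripts), and 15 had an unadjusted p below 0.05 (13.3%, against 7.48%). The P+ root libraries that differed in shoot marker level also differed here. Without P+ root library 2 the median in poly(A)+ RNA was -0.31, with 108 of 166 below 0 and 0 members past the adjusted threshold, and without P+ root library 3 it was -0.79, with 22 members past it (13.3%), a share near the 12.8% of all transcripts that passed in the same fit. The part of the shoot marker level and of the spread between these libraries in the result was not tested.

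Several strongly expressed members illustrate the lower levels in P- roots. AT5G24735.1, a cis-lncRNA (chr5:8468331-8469262, minus strand), had 359 and 158 FPKM in P+ roots and 63.1 and 76.8 FPKM in P- roots, a difference of -1.76 ± 0.41 (log2, standard error, n = 2 and 2 libraries, limma adjusted p = 0.108). In shoots the order was the opposite, 105 and 142 FPKM under P+ and 200.4 and 259 FPKM under P-. TAS3 had 252 and 208 FPKM in P+ roots and 130 and 107 FPKM in P- roots, without overlap, a difference of -0.96 ± 0.29 (adjusted p = 0.193). It fell short of the study's fold of 2, and the study itself used AT3G17185 as a negative control without expression change.

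The members with the largest differences by the study's thresholds were low or uneven between replicates. AT3G14185.1, a cis-lncRNA of 298 nt, had 87.8 and 5.61 FPKM in P+ roots and 4.02 and 0 FPKM in P- roots, and was listed at 0 in all shoot libraries. AT1G09421.1, antisense to G6PD4, a glucose-6-phosphate dehydrogenase gene, had 37.2 and 0.739 FPKM in P+ roots and was listed at 0 in the other 6 poly(A)+ libraries. For both, the P+ mean rested on library 2. AT3G52535.1, whose locus overlaps the ovate family gene OFP18 antisense by only 6 nt, had 28.6 and 4.59 FPKM in P+ roots and 4.13 and 0 FPKM in P- roots. AT4G04223.2, whose sequence has a near-identical copy, had 18.2 and 39.2 FPKM in P+ roots and 8.01 and 1.86 FPKM in P- roots, a difference of -2.45 ± 0.71 (adjusted p = 0.172). None of these 4 passed the adjusted threshold.

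Of the members, 3 were higher in P- roots by the study's thresholds. The largest difference was that of AT1G55525.1, a cis-lncRNA of 2 exons (chr1:20728329-20728745, minus strand), listed at 0 and 2.20 FPKM in P+ roots and at 46.2 and 27.0 FPKM in P- roots (4.34 ± 0.74, adjusted p = 0.0523). It was at 0 in 3 shoot libraries and at 2.05 FPKM in the other, and in poly(A)- RNA it was listed above 0 only in P- roots, at 4.77 and 14.4 FPKM. AT3G52748.1, also a cis-lncRNA (chr3:19548972-19549589, plus strand), had 65.7 and 59.3 FPKM in P+ roots and 429.7 and 93.4 FPKM in P- roots, a wide spread in the P- group (1.67 ± 0.68, adjusted p = 0.293). AT5G10278.1, which overlaps a gene on its own strand and may share its reads, had 0 and 5.94 FPKM in P+ roots and 11.5 and 19.1 FPKM in P- roots (2.59 ± 0.87, adjusted p = 0.218).

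In poly(A)+ RNA of shoots no such shift was seen. The members' median P- minus P+ difference was 0.01 beside 0.11 over all transcripts, and 77 of 166 lay below 0. A total of 3 members (1.81%) passed an adjusted p of 0.05, a share near the 1.92% of all transcripts. Of these 2 were higher (1.19% of all transcripts) and 1 was lower (0.734%). The calls depended on both libraries of each shoot group, as did nearly all shoot calls of other transcripts. With 1 shoot library left out, the members' median ran from -0.002 to 0.14, beside 0.09 to 0.12 over all transcripts. The 2 libraries of a shoot group also differ in the read setting that the labels give. With the replicate number as a block only AT2G14878.1 remained called in limma (adjusted p = 0.0460), where 0.332% of all transcripts passed. AT5G07322.1 had an adjusted p of 0.0857 and AT4G13495.1 of 0.106. With such a block in both organs none passed, and 0.0219% of all transcripts did. By the study's thresholds 17 members were higher (10.2%, against 7.55%) and 15 lower (9.04%, against 5.4%). In poly(A)- RNA the median of the 113 members was 0.49 beside 0.13 over all transcripts, 74 of them (65.5%, against 55.5%) lay above 0 and 30 below it, 11 were higher (9.73%, against 7.41%) and 3 lower (2.65%, against 4.53%) by the study's thresholds. None passed the adjusted threshold in limma (0.269% of all transcripts), and 15 had an unadjusted p below 0.05 (13.3%, against 13.3%). Drawn in the same way from the 8 root libraries, at a root poly(A)+ mean of at least 1 FPKM, the list had 150 transcripts in the fit. Their median was 0.02.

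The transcript AT2G14878.1, a single-exon cis-lncRNA of 876 nt (chr2:6392167-6393042, plus strand), rose in P- shoots. It had 51.2 and 28.3 FPKM in P+ shoots and 220.3 and 146 FPKM in P- shoots, a difference of 2.21 ± 0.35 (adjusted p = 0.0332). In roots it was higher under P+, with 478 and 380 FPKM, than under P-, with 196 and 223 FPKM (-1.02 ± 0.35, adjusted p = 0.227). This is the locus whose start region with a P1BS match is printed above. The poly(A)- libraries had 3.81 and 28.6 FPKM in P+ shoots and 73.4 and 45.8 FPKM in P- shoots, without overlap (2.31, adjusted p = 0.289).

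The transcript AT5G07322.1, an intergenic single-exon RNA of 445 nt (chr5:2313119-2313563, minus strand), also rose in P- shoots, from 2.58 and 7.56 FPKM to 34.5 and 33.6 FPKM (2.66 ± 0.46, adjusted p = 0.0442). Its level in roots was far higher, 438 and 345 FPKM under P+ and 175 and 324 FPKM under P-. The P- shoot mean was 13.7% of the P- root mean, while the summed root markers stood at 4.90% of their P- root level in the same libraries. The same share was 87.4% for AT2G14878.1 and 436% for AT1G11175.1. The part of the root marker level in these differences was not tested.

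AT4G13495.1, whose locus holds microRNAs, fell in P- shoots, from 325 and 301 FPKM to 53.8 and 85.4 FPKM (-2.19 ± 0.39, adjusted p = 0.0465). In roots it stayed between 5.87 and 14.0 FPKM in all 4 libraries. In poly(A)- RNA its shoot levels were 17.7 and 44.4 FPKM under P+ and 39.1 and 51.6 FPKM under P-, overlapping groups with a difference of 0.66 (adjusted p = 0.793). The table holds the long transcript and no mature microRNA, so the levels of miR5026, miR850 and miR863 were not measured here. Within each shoot replicate the P- minus P+ differences were 2.08 and 2.33 for AT2G14878.1, 3.31 and 2.01 for AT5G07322.1, and -2.57 and -1.81 for AT4G13495.1. The groups of these 3 members do not overlap, so the direction within a replicate was fixed in advance and adds no support.

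Other shoot differences passed only the study's thresholds. AT1G11175.1, a single-exon cis-lncRNA (chr1:3744858-3745655, plus strand), had 16.7 and 15.5 FPKM in P+ shoots and 102 and 81.2 FPKM in P- shoots (2.43 ± 0.51, adjusted p = 0.0679), with no overlap and agreement between replicates. AT2G09795.3, in a pseudogene or transposable element region, had 1.19 and 8.61 FPKM against 44.5 and 28.5 FPKM (3.0 ± 0.74, adjusted p = 0.0968). On the lower side, AT5G36002.2, antisense to AT5G36001, had 4.66 and 18.4 FPKM in P+ shoots and was listed at 0 in both P- shoot libraries (adjusted p = 0.0648). AT3G13061.1, antisense to ECT5, a gene of the YTH family of m6A readers, had 41.8 and 12.5 FPKM against 6.64 and 1.37 FPKM (adjusted p = 0.236). AT1G26208.2, antisense to SOFL1, had 8.45 and 7.96 FPKM against 1.37 and 0.849 FPKM (adjusted p = 0.221).

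**Figure D2:**
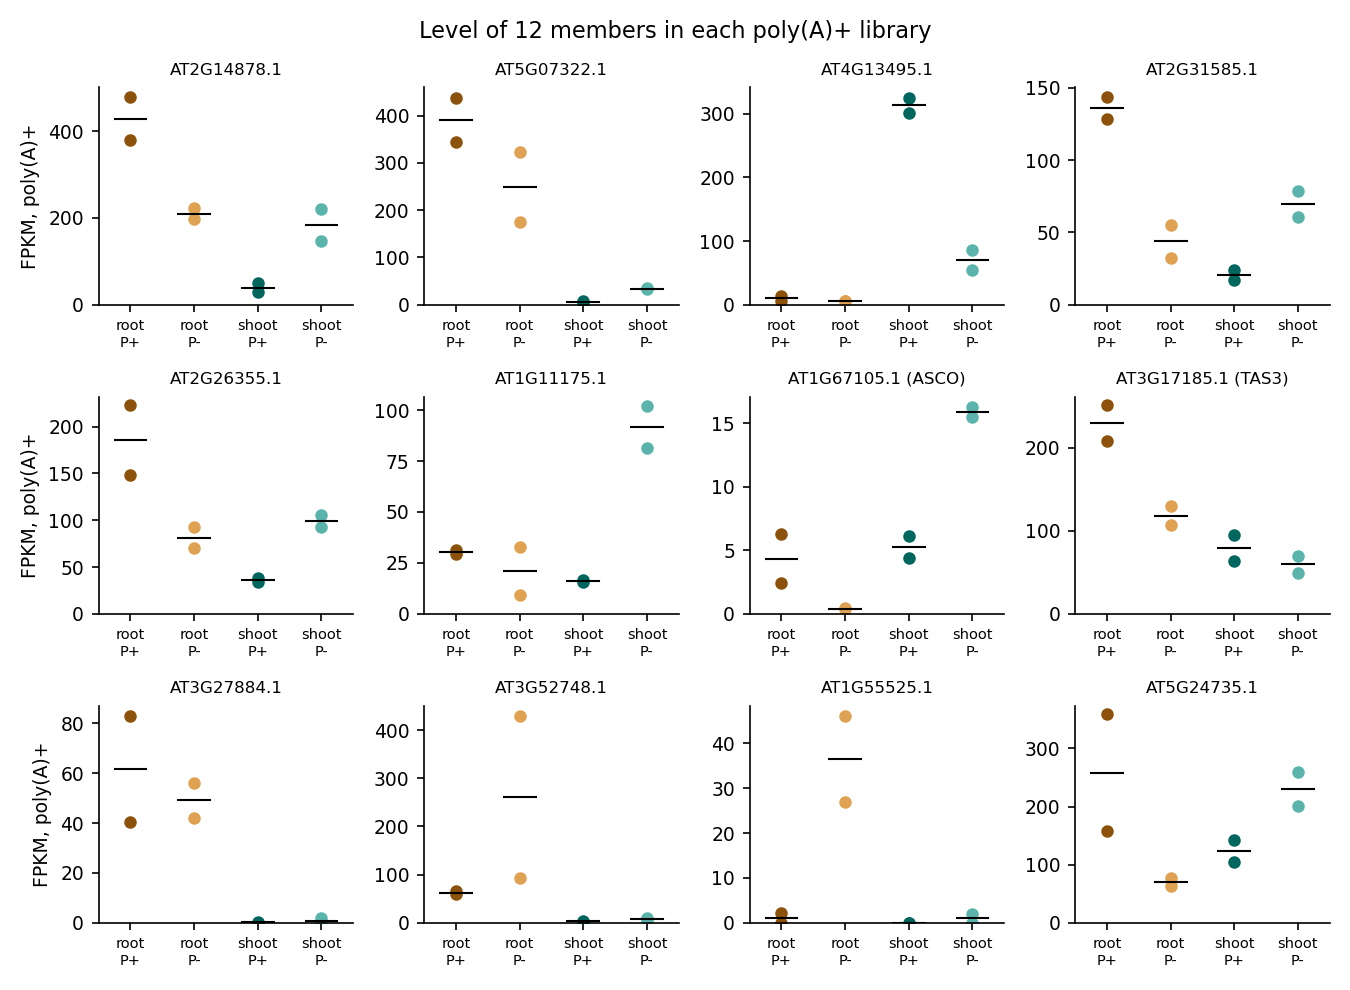
Level of 12 members in the 8 poly(A)+ libraries, in FPKM on linear axes that start at 0, with 1 point per library and a bar at the mean of 2 libraries. AT2G14878.1 is lowest in P+ shoots (51.2 and 28.3 FPKM), AT4G13495.1 is highest there (325 and 301 FPKM), and AT1G55525.1 exceeds 2.20 FPKM in P- roots alone.

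Some members moved in opposite directions in the organs. Of the 166 members in the fit 60 were lower in P- roots and higher in P- shoots, 57 were lower in both, 25 higher in both and 20 higher in roots and lower in shoots. Past the study's thresholds in both organs 5 members (3.01%) were lower in P- roots and higher in P- shoots, as were 107 of all 27395 transcripts (0.391%). They were AT2G14878.1, ASCO (AT1G67105.1), AT2G31585.1, AT2G26355.1 and AT3G54366.1, of which the last 3 were singled out after their values were seen. The test of the difference between the organs, the interaction of tissue and Pi supply, passed an adjusted p of 0.05 in 0 members and in 0.183% of all transcripts, and 37 members (22.3%, against 16%) had an unadjusted p below 0.05. In 29 of these the response was lower in roots (17.5%, against 8.86%) and in 8 it was higher (4.82%, against 7.11%). Without P+ root library 3 the interaction passed the adjusted threshold in 16 members (9.64%, against 7.44% of all transcripts), and without P+ root library 2 in 1 (0.602%, against 0.343%).

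ASCO is known as a competitor of messenger RNAs for nuclear splicing regulators and acts in lateral root formation. It lies at chr1:25057479-25058264 on the plus strand, and it had 2.39 and 6.28 FPKM in P+ roots and 0.369 and 0.445 FPKM in P- roots (-1.82 ± 0.45, adjusted p = 0.123). Its shoot levels were 4.39 and 6.12 FPKM under P+ and 15.5 and 16.3 FPKM under P- (1.45 ± 0.45, adjusted p = 0.155). The groups did not overlap in either organ, and the interaction was -3.27 ± 0.63 (adjusted p = 0.0941). AT2G31585.1 (chr2:13446002-13446729, plus strand) had 144 and 128 FPKM in P+ roots, 55 and 32.5 FPKM in P- roots, 24.3 and 16.9 FPKM in P+ shoots and 61.0 and 78.4 FPKM in P- shoots. Its interaction had the lowest adjusted p among the members (-3.38 ± 0.46, adjusted p = 0.0586), and 90.1% of its locus has a near-identical copy, so the level is uncertain. AT2G26355.1, antisense to AT2G26360, had 149 and 223 FPKM, 70.0 and 92.9 FPKM, 33.5 and 38.4 FPKM, and 92.8 and 106 FPKM in the same order (interaction -2.60 ± 0.39, adjusted p = 0.0660). AT3G54366.1 had 66.1 and 136 FPKM, 37.1 and 49.2 FPKM, 47.8 and 42.9 FPKM, and 116 and 91.2 FPKM. In these members P+ roots stood above P- roots, and P- shoots above P+ shoots, in every library.

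**Figure D3:**
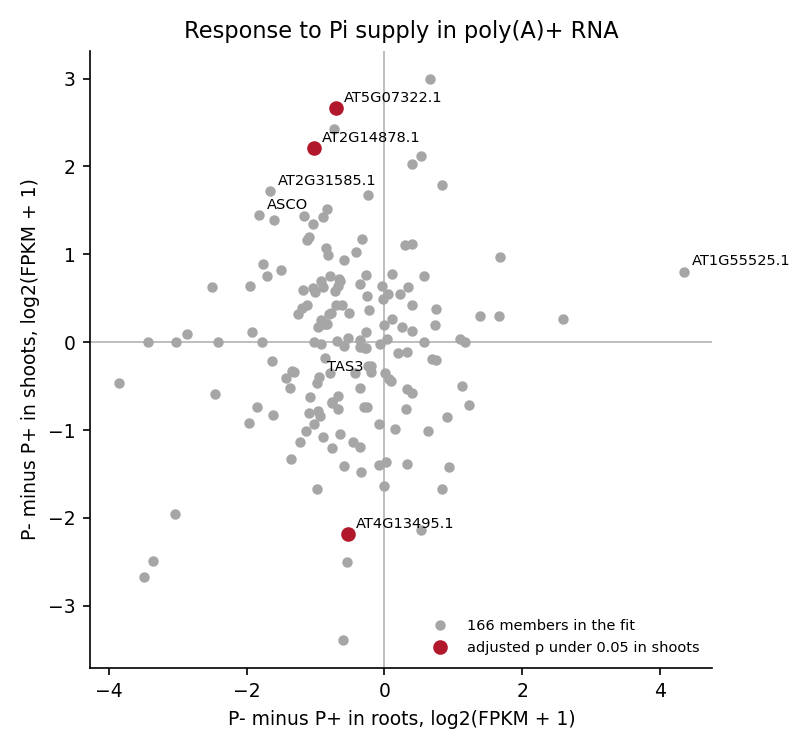
P- minus P+ difference of the 166 members in roots (horizontal) and in shoots (vertical), on the log2(FPKM + 1) scale in poly(A)+ RNA, with the 3 members past an adjusted p of 0.05 in shoots in red. Of the points 120 lie left of 0, and 60 of these lie above 0 in shoots.

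**Figure D4:**
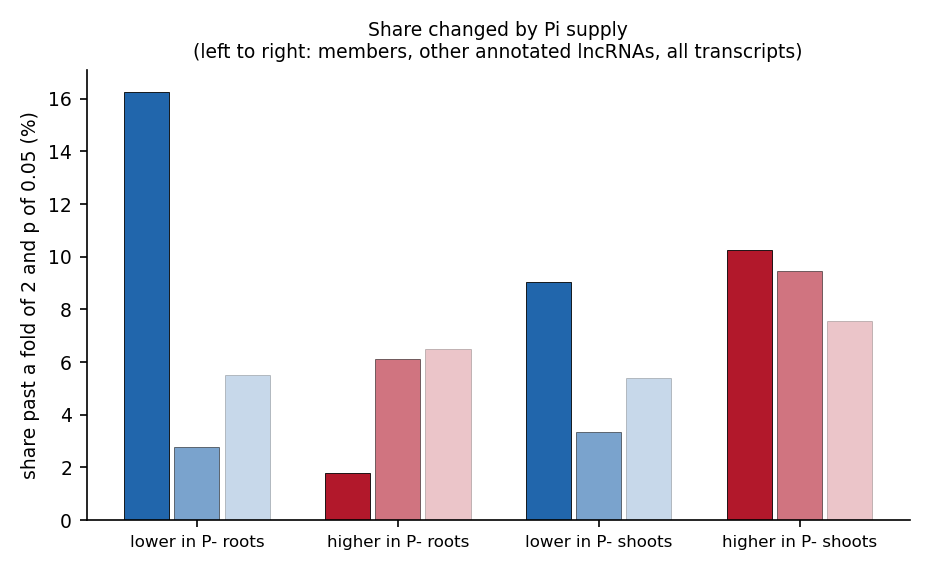
Share of transcripts past a fold of 2 with an unadjusted p of 0.05 in poly(A)+ RNA, in percent, for members (left bar of each set), other annotated lncRNAs (middle bar) and all transcripts (right bar), in blue for lower and red for higher under P-. In roots 16.3% of members were lower, against 5.5% of all transcripts, and 1.81% were higher, against 6.5%.

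The root response was also read by position class. The median P- minus P+ difference in roots was -0.36 in the 98 antisense members of the fit, -0.74 in the 27 cis-lncRNAs and -0.82 in the 34 intergenic members, of which 30 lay below 0. By the study's thresholds 13 antisense members (13.3%), 6 cis-lncRNAs (22.2%) and 8 intergenic members (23.5%) were lower in P- roots, beside 5.5% of all transcripts, and 0, 2 (7.41%) and 0 were higher, beside 6.5%. In shoots the medians were 0.00, 0.20 and -0.01. The difference between the classes was not tested.

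The comparison of roots with shoots gave most of the calls. Under P+ 32 members (19.3%, against 32.3% of all transcripts) passed an adjusted p of 0.05, 26 higher in roots (15.7%, against 19.5%) and 6 lower (3.61%, against 12.8%). Under P- 29 members (17.5%, against 28.3%) passed it, 13 higher in roots (7.83%, against 16.9%) and 16 lower (9.64%, against 11.3%). Leaving out 1 library gave 52 calls under P+ without P+ root library 3 and 18 and 19 without a P+ shoot library. Under P- it gave 40 without either P+ root library, 17 and 16 without a P- root library and 13 without either P- shoot library. The members' share in these fits ran from 7.83% to 31.3%, and that of all transcripts in the same fits from 15.3% to 41.4%. The members' median root minus shoot difference was 0.60 under P+ and -0.02 under P-, while that of all transcripts was 0.31 and 0.29. After rescaling of the libraries by median ratios, which moved the median of all transcripts to 0.06 and 0.04, the calls at the study's thresholds under P+ went from 37 higher and 13 lower in roots to 28 and 19 (22.8% of all transcripts were higher and 14.8% lower before rescaling). Under P- they went from 22 and 22 to 16 and 28 (21.4% and 13.3% of all transcripts before rescaling). The shares of all transcripts at these thresholds were not counted after rescaling, so a shift particular to the members cannot be read from this. After rescaling 30 members under P+ (18.1%, against 30.8% of all transcripts) and 29 under P- (17.5%, against 26.5%) passed the adjusted threshold. In poly(A)- RNA 16 of the 113 members under P+ (14.2%, against 20.4% of all transcripts) and 13 under P- (11.5%, against 16.3%) passed the adjusted threshold. Of the members called in poly(A)+ RNA that were also in that fit, 11 of 27 under P+ and 7 of 24 under P- were called there too, all in the same direction. The same overlap was not counted over all transcripts, so these numbers are a description alone.

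Several members had their signal mainly in roots. AT5G07322.1 had the largest difference, 6.14 ± 0.46 under P+ (adjusted p = 0.000151). AT3G27884.1, an intergenic lncRNA (chr3:10346086-10348282, minus strand), had 40.6 and 83.0 FPKM in P+ roots and 42.1 and 56.1 FPKM in P- roots, against 0 and 0.319 FPKM in P+ shoots and 1.75 and 0 FPKM in P- shoots (5.69 ± 0.57, adjusted p = 0.000461, under P+). AT5G38005.1 had 81.9 and 132 FPKM in P+ roots and 23.6 and 47.4 FPKM in P- roots, with 0 to 5.11 FPKM in shoots. Its difference was 5.81 ± 0.65 under P+ and 2.82 ± 0.65 under P-, both past the threshold. AT3G52748.1 was higher in roots under both media (3.96 ± 0.68 and 4.65 ± 0.68, adjusted p = 0.00473 and 0.00287), and in poly(A)- RNA it was listed at 0 in all 4 shoot libraries and at 17.8 to 122 FPKM in roots. The nearby loci AT1G11175 and AT1G11185 did not share a pattern. AT1G11185.1 was higher in roots under both media (2.88 ± 0.41 and 3.20 ± 0.41), and AT1G11175.1 was lower in roots under P- (-2.30 ± 0.51, adjusted p = 0.0151). Among the remaining root members, AT1G31935.1 had 153 and 94.8 FPKM in P+ roots against 10.2 and 20.9 FPKM in P+ shoots, and one transcript of a multi-transcript locus, AT4G06701.4, had 19.7 and 14.8 FPKM in P- roots against 1.15 and 3.41 FPKM in P- shoots.

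The clearest shoot member was AT4G13495.1, lower in roots by -4.91 ± 0.39 under P+ (adjusted p = 0.00018) and by -3.25 ± 0.39 under P- (adjusted p = 0.00125). ASCO was lower in roots under P- (-3.59 ± 0.45, adjusted p = 0.0015) and close to even under P+ (-0.32 ± 0.45, adjusted p = 0.625). AT2G32795.1, an intergenic transcript of 2 exons, had 14.7 to 29.3 FPKM in shoots and 2.00 to 6.13 FPKM in roots, and was called under both media. AT5G36002.2 was called under P+ alone, where its shoot libraries had 4.66 and 18.4 FPKM. TAS3 was higher in roots under both media, by 1.54 ± 0.29 under P+ (adjusted p = 0.00732) and 0.99 ± 0.29 under P- (adjusted p = 0.0456), with P+ shoots at 94.7 and 64.1 FPKM and P- shoots at 69.9 and 49.5 FPKM. TAS3b was near the detection limit, listed at 1.09 FPKM in 1 P+ root library, at 3.90 FPKM in 1 P+ shoot library and at 4.20 FPKM in 1 P- shoot library, and at 0 in the other 5.

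**Figure D5:**
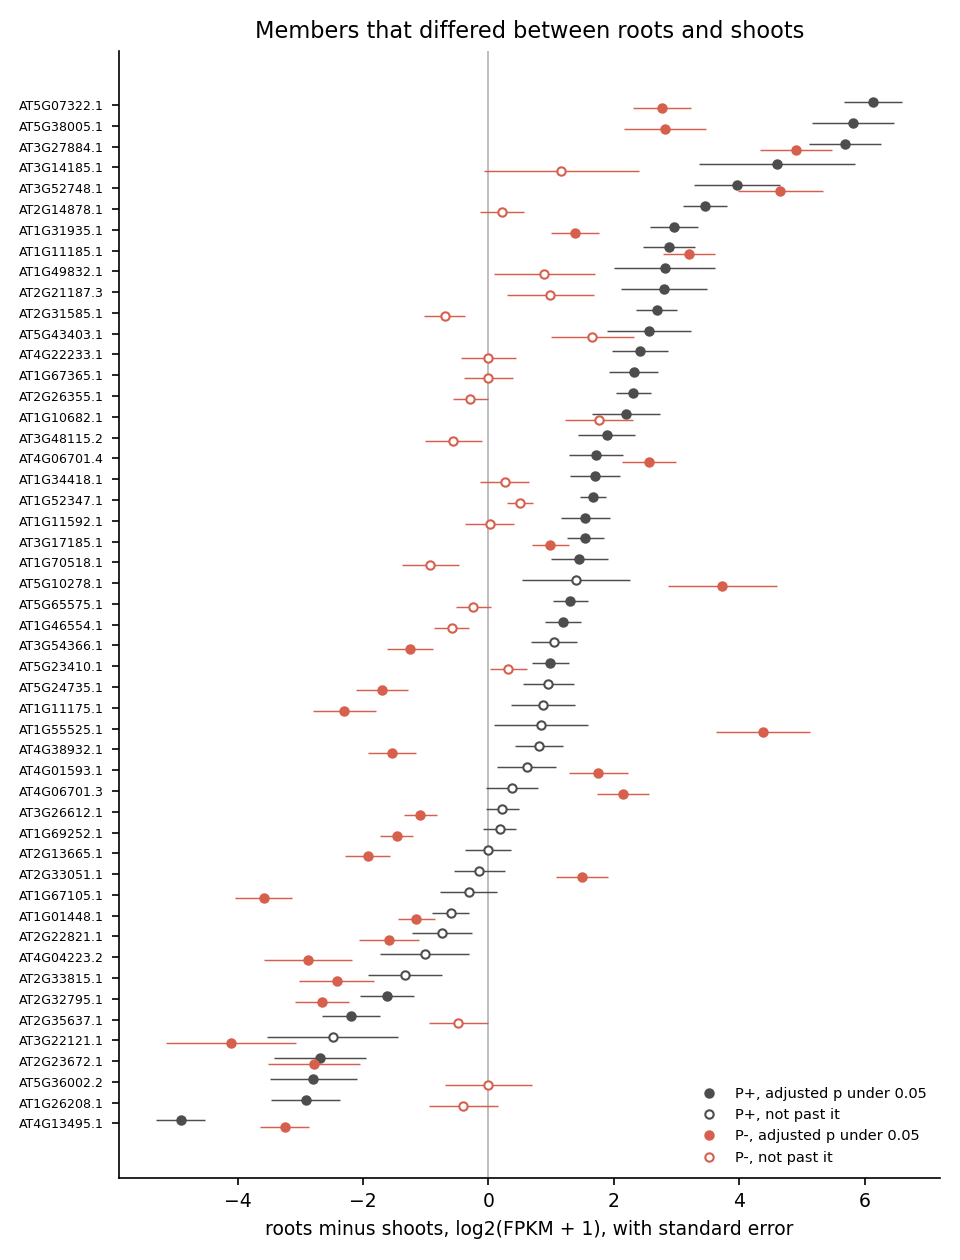
Root minus shoot difference on the log2(FPKM + 1) scale with its standard error for the 50 members past an adjusted p of 0.05 under P+ or P- in poly(A)+ RNA, in grey for P+ and red for P-, filled where the threshold was passed. The members run from 6.14 (AT5G07322.1) to -4.91 (AT4G13495.1) under P+.

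Of 11 other genes of the ta-siRNA pathway and its targets none passed an adjusted p of 0.05 in roots or shoots, where 1.18% and 1.92% of all transcripts did. By the study's thresholds HEN1, the small RNA methyltransferase, was the one that was higher in P- roots (1.38 ± 0.35, adjusted p = 0.135). AGO7, which binds miR390, had 3.45 ± 2.66 FPKM (SD, n = 2) in P+ roots and 2.06 ± 0.113 FPKM in P- roots, a difference of -0.40 ± 0.51. The ta-siRNA targets ARF3 and ARF4 differed by -0.25 ± 0.42 and 0.51 ± 0.34 in roots (unadjusted p = 0.569 and 0.178), and ARF2 by 1.24 ± 0.67 (unadjusted p = 0.106). Between organs SDE5, a factor that acts with RDR6, was higher in P+ roots than in P+ shoots (1.52 ± 0.40, adjusted p = 0.0262).

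A further question was whether antisense members moved with the coding gene on the opposite strand. Of 114 antisense member transcripts 84 had an expressed partner, and in 76 pairs both were in the fit. No pair had both transcripts past an adjusted p of 0.05 for Pi supply in either organ. For Pi supply 41 of the 76 pairs had the same sign in roots and 41 in shoots. Across the pairs the Spearman correlation of the differences was 0.22 in roots and 0.24 in shoots for Pi supply, and 0.54 under P+ and 0.31 under P- for roots against shoots. Pairs are not independent replicates and come from the same libraries. The library kit marks the strand, but the labels state an unstranded read setting for replicate 1 of roots and replicate 2 of shoots, and in libraries read that way the reads of a lncRNA and its antisense partner cannot be told apart. In shoots the median replicate 2 minus replicate 1 difference of antisense members was 0.00 under P+ and 0.01 under P-, and that of other members was 0.09 and 0.00. In roots the median library 3 minus library 2 difference of antisense members was -0.27 under P+ and 0.15 under P-, and that of other members was -0.08 and 0.00, where library 2 is the one listed under replicate 1. The part of the strand setting in the pairs was not tested further.

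Of the 76 pairs 53 had the same sign between organs under P+ and 43 under P-. In these 76 pairs 10 members and 19 partners were called under P+, where 32.3% of all transcripts were called. Under P- 6 members and 20 partners were called, where 28.3% of all transcripts were. How often both transcripts of other antisense pairs were called was not counted. In 5 pairs both transcripts were called between organs under P+, always in the same direction. AT1G26208.1 and SOFL1 were lower in roots by -2.91 and -2.98, and AT2G23672.1 and YCF37, a gene for a photosystem I assembly factor, by -2.69 and -3.01. AT2G35637.1 and AT2G35640 were lower by -2.19 and -1.60. AT2G26355.1 and AT2G26360, which overlap by only 20 nt, were higher by 2.31 and 2.01, and AT4G22233.1 and AT4G22235 by 2.41 and 4.63. Under P- 4 pairs had both called. AT2G23672.1 and YCF37 were lower by -2.79 and -3.76. AT2G33815.1, antisense to SPL3, a flowering regulator of the SBP family that miR156 targets, was lower in roots by -2.42 and SPL3 by -4.53. AT3G22121.1 and CWLP, a cell wall linker protein gene, were lower by -4.11 and -5.11, although AT3G22121.1 varied in P+ shoots from 22.1 FPKM in replicate 1 to 0.877 FPKM in replicate 2. The exception in direction was AT2G33051.1, higher in roots by 1.5 with 10 and 5.22 FPKM in P- roots against 2.04 and 1.85 FPKM in P- shoots, while its partner RLP26, a receptor-like protein gene, was lower by -1.30. The same pair also moved apart with Pi supply in shoots by the study's thresholds, AT2G33051.1 by -1.01 and RLP26 by 1.25.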

How the data were processed

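The authors mapped reads to TAIR10 with TopHat2, assembled transcripts with Cufflinks and deposited FPKM estimated by eXpress for coding transcripts, annotated lncRNAs and assembled lncRNAs. They used DESeq2 for fold and p-value columns, which were not used here. Versions are not given in the sources used here. The authors' FPKM are scaled for transcript length and library size and keep no counts, so depth is unknown and no count test was run. Here log2(FPKM + 1) of the 3 tables, for transcripts that averaged 1 FPKM or more in a fraction (27395 in poly(A)+, 27497 in poly(A)-), was fitted with limma 3.58.1 (R 4.3.3, trend, 4 group means, n = 2), with two-sided p-values adjusted by Benjamini-Hochberg over all of them, and checked on simulated data. A fold change on this scale understates changes of low transcripts. Members, gene lists and tests were chosen with earlier results of these data known. Named members were up to 8 per direction and comparison with the largest difference among called members at 2 FPKM or more whose groups did not overlap, filled to 4 from the study's thresholds, the 8 highest members, those of known role, at most 6 antisense pairs called together, and the 3 nearest the ratio on each side. Copies were found with BLAST+ 2.17.0. Alternatives were other pseudocounts, minimums, scaling, a fit without trend, a replicate block, sums per locus, each library left out, and stricter member rules.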

Additional observations from a re-analysis of the deposited data

How the results depend on the processing

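A stricter ratio of at least 4 left 107 members, and a ratio of at least 2 in each of the 4 groups left 58. For Pi supply in roots, where no member was called, a pseudocount of 5 gave 1 call, no minimum 2, a fit without trend 1 and sums per locus 2, and leaving out each library gave 0 to 22, the highest without P+ root library 3. In shoots the 3 calls became 5 at a minimum mean of 5 FPKM, 0 without trend, 1 with the replicate block and 8 with sums per locus, and 0 to 7 when each library was left out, with 0 whenever it was a shoot library and 7 without either P+ root library. Between organs the 32 calls under P+ ranged from 18 (without a P+ shoot library) to 52 (without P+ root library 3) and the 29 under P- from 13 (without a P- shoot library) to 40 (without a P+ root library). The interaction, with 0 calls, had 1 at a pseudocount of 5, 1 at a minimum of 5 FPKM, 5 with sums per locus and 0 to 16 without 1 library. The share of all transcripts called also moved between settings. With every library kept, the members' share for Pi supply in roots was lower than that share at each setting named. In shoots it was lower without trend and with sums per locus. It was higher at the minimum of 5 FPKM and with the replicate block. For the interaction it was higher at each setting named. These shares rest on few member calls, so no change particular to the members can be read from them. In poly(A)- RNA a pseudocount of 0.1 gave 1 shoot call. The median root response was -0.36 with members chosen on the shoot libraries. With 1 library left out, the lone library was assumed to vary like the other groups. Of the values for single members 682 stayed on their side of the threshold, 77 no longer passed it, 14 newly passed it and 0 changed direction. These single members were chosen with groups that do not overlap, so their direction could hardly change and its stability is no support. The differences between the libraries of a group correlated between P+ and P- at 0.158 in shoots and at 0.128 in roots over 27395 transcripts, from 2 pairs each. The labels tie the number to a read setting and to no shared plants or day. The replicate block in shoots gave 30 organ calls under P+ (18.1%, against 28.3% of all transcripts) and 27 under P- (16.3%, against 23.8%). A replicate block in both organs, by the numbers of the columns, was added after the data were seen. It gave 37 organ calls under P+ (22.3%, against 32.1%) and 31 under P- (18.7%, against 27.0%). For Pi supply it gave 0 calls in roots and 0 in shoots, and 0 for the interaction (0.19%, 0.0219% and 0% of all transcripts). Precision is limited by 2 libraries a group and by unknown depth.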
